A study of Mus musculus with 16 samples.

Results

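The mitochondrial chaperones and proteases described here are 10 genes of the mitochondrial unfolded protein response: Hspd1, Hspe1, Hspa9, Dnaja3, Lonp1, Clpp, Clpx, Yme1l1, Afg3l2 and Spg7. They were chosen by symbol, taking every probe set whose only gene symbol in the array's annotation was one of these names. All 10 were measured, on 25 of the 44904 probe sets analysed, and they make up 10 of the 18168 genes with a value.

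RNA was measured on 16 Affymetrix arrays in 4 groups of 4: mutant Twinkle overexpressor cerebellum, wild-type cerebellum, mutant Twinkle overexpressor hippocampus and wild-type hippocampus. Twinkle is the helicase that unwinds mitochondrial DNA, and mice that overexpress a mutant form of it, called deletor mice, are a model of progressive external ophthalmoplegia. In order of replicate number, mutants were 24, 24, 21 and 21 months old and wild types 26, 24, 21 and 23 months old, in both regions. The labels describe biological replicates, but give neither the promoter that drives the transgene nor which cerebellum and hippocampus came from the same mouse. The tests therefore rest on the spread among samples within groups. Except in the average over regions, the main fits pool each gene's spread over the 4 groups. It is then moderated over all genes. An SE or interval given for a region thus also holds the spread in the other region.

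The deposited values are relative. Each one is a difference, taken here as log2, from the median of the 8 arrays of its region, so a member has no expression level, members cannot be ranked by level, and the hippocampus cannot be set against the cerebellum. The log base is not given in the sources used here. If it were the natural log, each difference would be multiplied by 1.44 to reach the log2 scale. In bulk tissue, fewer cells of a type and less RNA per cell cannot be told apart.

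Most mitochondrial proteins are imported as unfolded chains. Hspa9 (mortalin), a chaperone of the Hsp70 family, pulls them into the matrix, and the barrel of Hspd1 (Hsp60) with its lid Hspe1 (Hsp10) folds them. Dnaja3 is a J-domain partner of Hspa9 in the matrix. Damaged matrix proteins are degraded by Lonp1, which also binds mitochondrial DNA, and by Clpp, a proteolytic chamber fed by the unfoldase Clpx. In the inner membrane the proteases are Yme1l1, which faces the intermembrane space, and Afg3l2 with Spg7 (paraplegin), which face the matrix. In human families, mutations of SPG7 and AFG3L2 are known from spastic paraplegia and spinocerebellar ataxia. Work in cultured mammalian cells and in worms described a rise of transcripts for chaperones and proteases of this kind when mitochondrial proteins misfold.

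Hspd1 and Hspe1 are known to lie head to head, with a shared promoter between them, so their start regions are shown first. RefSeq windows of 300 bases, from 250 bases before to 50 after a start on GRCm38.p6, were used for 8 of the 10 members. No windows of Hspa9 and Afg3l2 were searched, so nothing is said here of motifs in them. The Hspe1 window lies at chr1:55087898-55088197 on the + strand and shares 285 bases with 1 of the 2 Hspd1 windows, which reads the other strand. The Lonp1 window, at chr17:56626854-56627153 on the - strand, is set beside it because Lonp1 had the highest genotype difference averaged over regions. Capitals mark the 2 motifs found, a TGCAAT and a pair of overlapping heat shock elements.
Hspe1: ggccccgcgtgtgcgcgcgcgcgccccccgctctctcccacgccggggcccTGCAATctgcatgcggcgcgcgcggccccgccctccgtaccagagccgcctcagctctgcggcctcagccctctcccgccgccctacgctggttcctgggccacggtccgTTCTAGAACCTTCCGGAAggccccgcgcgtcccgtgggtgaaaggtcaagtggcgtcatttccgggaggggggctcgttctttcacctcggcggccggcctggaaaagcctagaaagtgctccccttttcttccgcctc
Lonp1: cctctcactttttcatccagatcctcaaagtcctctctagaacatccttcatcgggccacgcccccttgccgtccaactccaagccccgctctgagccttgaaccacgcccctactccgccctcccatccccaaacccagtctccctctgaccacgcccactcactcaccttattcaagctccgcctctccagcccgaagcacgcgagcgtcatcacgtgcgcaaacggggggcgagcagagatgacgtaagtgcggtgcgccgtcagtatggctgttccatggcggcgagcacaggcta
The heat shock element, searched on both strands as the alternating units TTC, GAA and TTC with NN between them, matched at 2 overlapping places in the Hspe1 window and at 2 in the Hspd1 window that shares its bases. It was in none of the windows of Dnaja3, Lonp1, Clpp, Clpx, Yme1l1 and Spg7, nor in the other Hspd1 window, and 0.603% of the 32851 RefSeq windows of this length held it. TGCAAT was in the same pair of windows and in 8.4% of all windows. TGATGCAA, the longer element bound by ATF4 with a C/EBP partner, shares the letters TGCAA with it; it was in none of these windows and in 0.895% of all windows. A match describes the letters and does not show that a factor binds there.

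The gene behind the genotype was looked at first. Twnk, which encodes Twinkle, was at -0.0013, 0.0087, 0.11 and -0.013 in mutant cerebellum, against -0.011, -0.15, 0.0099 and 0.0013 in wild-type cerebellum. In hippocampus it was at 0.029, -0.0083, 0.0083 and 0.025 in mutants, against -0.090, -0.11, -0.057 and 0.050 in wild types. The groups overlapped in both regions and the differences were 0.06 each, with limma adjusted p = 0.915 in cerebellum and 0.766 in hippocampus. The labels do not say whether this mouse probe set reads the transgene, so the value does not check the genotypes.

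Some arrays stood apart from others of their group, and with no expression levels the labelled regions could not be checked against their markers. The mean over markers of cerebellar granule neurons was 3.81 above the region's median array in wild-type hippocampus replicate 1 and 1.43 above it in mutant hippocampus replicate 1, and the Purkinje cell list was at 2.07 in the same wild-type array. For the choroid plexus list it was 2.18 in mutant hippocampus replicate 4, 1.14 in wild-type hippocampus replicate 1 and -1.93 in mutant cerebellum replicate 4. Spike-ins added as poly-A RNA averaged 0.55 and 0.59 in mutant cerebellum replicates 2 and 4. Spike-ins of the hybridization averaged -0.78 in wild-type cerebellum replicate 4, the array with the lowest mean over the members.

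Of 51 marker genes measured on 11 lists, 12 in hippocampus and 3 in cerebellum had an unadjusted p under 0.05 between genotypes, beside 8.03% and 5.39% of all genes. None passed after adjustment, with a smallest adjusted p of 0.0826 in hippocampus and 0.884 in cerebellum. The genotypes did not overlap for 5 of these genes in hippocampus and 3 in cerebellum, beside 4.76% and 2.46% of all genes. The mean over blood markers, 4 of 5 of them measured, did not overlap between genotypes. It was -0.12 to -0.073 in mutant cerebellum and 0.045 to 0.35 in wild-type cerebellum, and -0.30 to -0.060 in mutant hippocampus and 0.063 to 0.67 in wild-type hippocampus. Alas2, of red cell heme synthesis, was lowest, at -1.19 in hippocampus and -0.97 in cerebellum, and Hbb-b2, a globin, was at -0.59 and -0.38, while Slc4a1, the red cell anion exchanger, was at -0.099 and 0.030. Values of Hbb-b2 overlapped between genotypes in hippocampus. Of the 4 blood markers measured, 3 were below 0 in each region. The other globin measured, Hba-a1, was the 1 above 0 in hippocampus, at 0.076. The mean of meningeal markers in hippocampus was 0.073 to 0.69 in mutants and -0.36 to -0.030 in wild types, with 5 of 5 differences above 0. Ependymal markers were also above 0 there in 5 of 5 cases, with a median of 0.65 and Tmem212 at 1.06, and their mean was -0.040 to 0.64 in mutants and -0.41 to -0.025 in wild types. Markers of hippocampal neurons were below 0 there in 5 of 5 cases, with a median of -0.31, and their mean was -0.25 to -0.013 in mutants and -0.12 to 0.42 in wild types. The neuronal marker Rbfox3 was at -0.18 in hippocampus and the microglial marker Aif1 at 0.24 in cerebellum, and neither overlapped between genotypes. Of the neuronal markers 4 of 5 were below 0 in hippocampus, with Tubb3 at 0.15. Microglial markers were above 0 in cerebellum in 5 of 5 cases, with a median of 0.059. In hippocampus 4 of 5 of them were below 0, with Aif1 at -0.081. The part of these lists in the members' values was not tested.

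In the cerebellum no member passed the test between genotypes, and the chaperones Hspe1 and Hspa9 gave the highest differences. Hspe1 stood 0.11 above wild type, Hspa9 0.10 and Hspd1 0.082 on the log2 scale, each with a 95% interval that includes 0. The proteases went in both directions, between -0.086 for Clpx and 0.089 for Lonp1. In limma's moderated fit, 0 of the 10 members and 0% of the 18168 genes had a Benjamini-Hochberg adjusted p under 0.05, and 0 members and 5.39% of genes had an unadjusted p under 0.05. For 0 members, against 2.46% of genes, did the 4 mutants all lie on one side of the 4 wild types.

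Hspd1, the subunit of the folding barrel, was at -0.014, 0.014, 0.17 and 0.062 in mutant cerebellum, against -0.032, -0.066, 0.056 and -0.049 in wild-type cerebellum. Mutant replicate 3 was the highest of all 8 arrays, and wild-type replicate 3 lay among the mutants. The means were 0.059 ± 0.082 in mutants and -0.023 ± 0.054 in wild types, as mean ± SD of 4 each, a difference of 0.082 ± 0.050 (SE) with an interval of -0.024 to 0.19 and adjusted p = 0.884. Without mutant replicate 3 the difference was 0.044.

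Hspe1, the lid of that barrel, was at -0.064, 0.10, 0.049 and 0.086 in mutants, against 0.039, -0.13, -0.092 and -0.10 in wild types. Mutant replicates 2 to 4 lay above every wild type, while mutant replicate 1 lay below wild-type replicate 1. Its difference, 0.11 ± 0.060, was the highest among the members, with an interval of -0.015 to 0.24 and adjusted p = 0.884. With 1 array left out at a time it ran from 0.093 to 0.15.

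Hspa9, the import motor of the matrix, was at 0.021, 0.087, 0.026 and -0.0057 in mutants, against 0.043, -0.045, -0.21 and -0.055 in wild types. The mutants lay close together and wild-type replicate 3 lay far below all other arrays. Without that array the difference was 0.051, against 0.10 ± 0.053 with it (adjusted p = 0.884). Dnaja3, a J-domain partner of Hspa9 in the matrix, had the 1 difference below 0 among the 4 chaperones. It spanned -0.11 to 0.013 in mutants and -0.12 to 0.083 in wild types, a difference of -0.043 ± 0.049, which was -0.018 without wild-type replicate 1 and -0.085 without wild-type replicate 4.

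Among the matrix proteases, Lonp1 was at 0.14, -0.11, 0.14 and 0.041 in mutant cerebellum, against -0.041, -0.11, 0.13 and -0.12 in wild-type cerebellum. Both genotypes held arrays near the top and near the bottom of the range, and the difference was 0.089 ± 0.068 (adjusted p = 0.904), or 0.060 without mutant replicate 1 and 0.14 without wild-type replicate 3. Clpp, the proteolytic chamber, spanned -0.035 to 0.042 in mutants and -0.13 to 0.13 in wild types, with a difference of -0.015 ± 0.061. Clpx, its unfoldase, was at -0.069, -0.20, -0.12 and 0.18 in mutants, against -0.10, 0.17, 0.13 and -0.064 in wild types. It had the largest SD of the members in both genotypes. Mutant replicates 2 and 3 lay below every wild type and mutant replicate 4 lay above every one. Its difference of -0.086 had the widest interval, -0.29 to 0.12, and was -0.036 without mutant replicate 2 and -0.16 without mutant replicate 4.

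For the inner-membrane proteases the differences were 0.050 ± 0.054 for Yme1l1, 0.011 ± 0.056 for Afg3l2 and -0.080 ± 0.057 for Spg7. Yme1l1 spanned -0.054 to 0.12 in mutants and -0.079 to 0.025 in wild types. Afg3l2 covered -0.064 to 0.092 in mutants and -0.092 to 0.10 in wild types, almost the same range. Spg7, the partner of Afg3l2 in the same membrane protease, was at 0.0080, -0.19, -0.033 and -0.063 in mutants, against 0.045, -0.0064, -0.032 and 0.034 in wild types. Mutant replicate 2 was far below the other arrays, and without it the difference was -0.039. Yme1l1 was at 0.021 without mutant replicate 4, and Afg3l2 at -0.022 without wild-type replicate 2 and 0.041 without wild-type replicate 3.

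Over the 10 members, 6 differences were above 0, with a median of 0.030, beside 53.6% of all genes above 0 with a median of 0.0074. The intervals of all 10 together ran from -0.29 to 0.24, which is 0.818- to 1.18-fold if the base is 2 and 0.748- to 1.27-fold if it is e. Adjusted p ranged from 0.884 to 0.991. Without mutant replicates 2 and 4, the arrays with raised poly-A spike-ins, the median was -0.0023. Lonp1 was then at 0.17 ± 0.075, Hspe1 at 0.062 ± 0.074, Spg7 at -0.023 ± 0.065 and Yme1l1 at -0.013 ± 0.063. Without wild-type replicate 4, the array with low hybridization spike-ins, the median was 0.032, with Hspe1 at 0.10, Lonp1 at 0.061, Yme1l1 at 0.029 and Dnaja3 at -0.085. Without probe sets that can match several transcripts, whose names end in _x_at, _s_at or _a_at, the median was -0.011. That setting also leaves out Lonp1, whose only probe set ends in _a_at, so its median covers fewer members. The mean over the 10 members was -0.0077, -0.017, 0.015 and 0.039 in mutants and 0.0083, -0.039, 0.024 and -0.052 in wild types, and these overlapped.

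**Figure D1:**
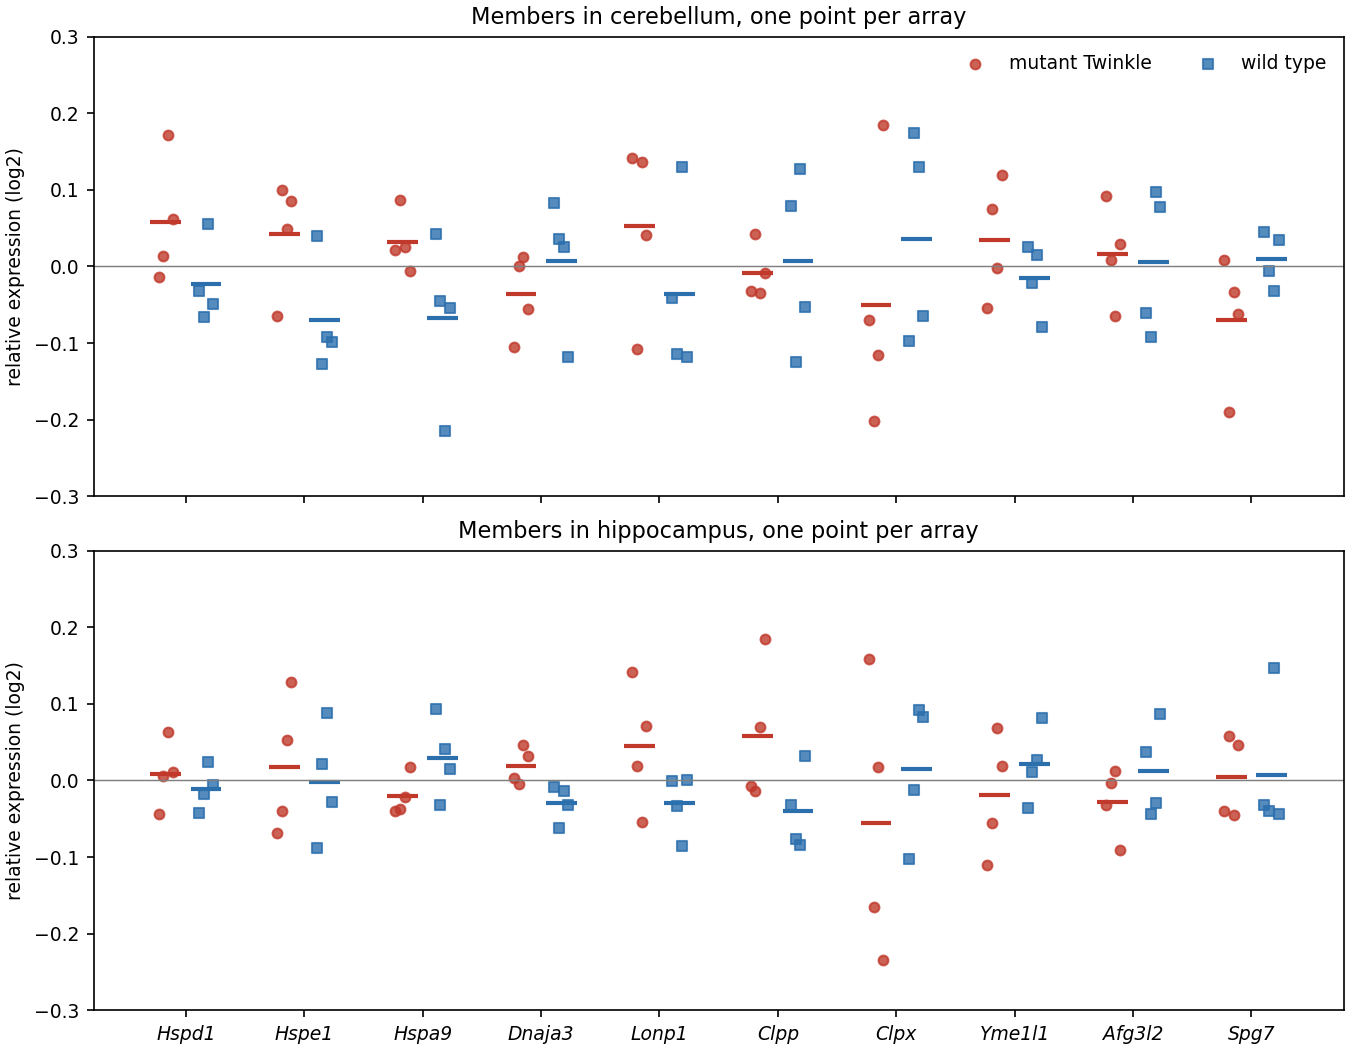
Relative expression (log2, difference from the median array of the region) of each of the 10 members on every array, with cerebellum above and hippocampus below. Red circles are mutants, blue squares wild types (n = 4 each), and bars are group means; the genotypes overlap for every member except Dnaja3 in hippocampus.

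In the hippocampus the members' differences lay on both sides of 0, 5 above and 5 below, and again none passed the test. The highest was 0.10 for Clpp and the lowest -0.071 for Clpx, the partners of a single protease. Hspd1 and Hspe1 had differences of 0.019 and 0.020. No member and 0% of genes had an adjusted p under 0.05 in limma, and 0 members and 8.03% of genes had an unadjusted p under 0.05.

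Dnaja3 was the 1 member whose genotypes did not overlap, which held for 4.76% of genes in either direction and 3.24% with mutants higher. It was at 0.0034, -0.0040, 0.046 and 0.032 in mutants, against -0.0087, -0.062, -0.014 and -0.031 in wild types. The gap between the lowest mutant and the highest wild type was smaller than the spread within either genotype. The means were 0.019 ± 0.024 in mutants and -0.029 ± 0.024 in wild types, as mean ± SD of 4 each. The difference was 0.048 ± 0.049 with limma adjusted p = 0.816. That SE pools all groups, and in cerebellum Dnaja3 had SDs of 0.054 in mutants and 0.087 in wild types.

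Clpp was at -0.0078, -0.014, 0.070 and 0.19 in mutant hippocampus, against -0.032, -0.077, -0.084 and 0.032 in wild-type hippocampus. Mutant replicate 4 was the highest array and mutant replicates 1 and 2 lay among the wild types. The difference was 0.10 ± 0.061, with an interval of -0.031 to 0.23 and adjusted p = 0.685, the smallest of the members. Without mutant replicate 4 it was 0.056. Clpx was at 0.16, -0.17, 0.018 and -0.23 in mutants, against -0.10, -0.012, 0.092 and 0.083 in wild types. The mutants held both the highest and the lowest array, and the difference was -0.071 ± 0.10, or -0.14 without mutant replicate 1 and -0.012 without mutant replicate 4. Lonp1 was at 0.14, 0.019, -0.054 and 0.071 in mutants, against -0.000202, -0.034, -0.086 and 0.000202 in wild types. All but 1 of its mutants lay above every wild type, and the difference was 0.074 ± 0.068 (adjusted p = 0.794), or 0.042 without mutant replicate 1.

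Among the folding chaperones, Hspd1 and Hspe1 differed less between genotypes here than within them. Hspd1 was at -0.044, 0.0055, 0.064 and 0.011 in mutants, against -0.043, -0.018, 0.024 and -0.0055 in wild types. Hspe1 was at -0.069, -0.039, 0.052 and 0.13 in mutants, against -0.089, 0.022, 0.088 and -0.028 in wild types. For both, the older replicates 1 gave low values in each genotype. Hspa9 was at -0.039, -0.037, -0.021 and 0.017 in mutants, against 0.094, -0.032, 0.042 and 0.015 in wild types, a difference of -0.050 ± 0.053. Wild-type replicate 1, the array with granule neuron markers far above the others, was the highest for Hspa9, whose difference was -0.028 without it. Hspd1 was at 0.0012 without mutant replicate 3, and Hspe1 at -0.017 without mutant replicate 4 and 0.050 without wild-type replicate 3. Marker lists stood apart in 3 hippocampus arrays, mutant replicates 1 and 4 and wild-type replicate 1. Without them Hspe1 was at -0.021 ± 0.076, Clpp at 0.071 ± 0.081, Clpx at -0.13 ± 0.093 and Lonp1 at 0.022 ± 0.092. The members' median was then -0.0069, on few arrays.

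Differences of the inner-membrane proteases were -0.041 ± 0.054 for Yme1l1, -0.041 ± 0.056 for Afg3l2 and -0.0029 ± 0.057 for Spg7. Yme1l1 spanned -0.11 to 0.068 in mutants and -0.036 to 0.081 in wild types, and Afg3l2 -0.091 to 0.013 in mutants and -0.044 to 0.087 in wild types. Spg7 was at -0.040, 0.058, -0.045 and 0.046 in mutants, against -0.033, -0.040, 0.15 and -0.044 in wild types. Wild-type replicate 3 was far above the other 3 wild types, which lay close together, and without it the difference was 0.044. Yme1l1 was at -0.010 without mutant replicate 1, and Afg3l2 at -0.016 without wild-type replicate 4. Over the 10 members the median difference was 0.0083, beside 58.9% of all genes above 0 with a median of 0.020. Without probe sets ending in _x_at, _s_at or _a_at, which again leaves out Lonp1, the median of the remaining members was -0.035. With age in months as a covariate the members' median turned to -0.020. Their intervals ran from -0.27 to 0.23, which is 0.827- to 1.17-fold in base 2 and 0.760- to 1.26-fold in base e, and adjusted p ranged from 0.685 to 0.991.

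**Figure D2:**
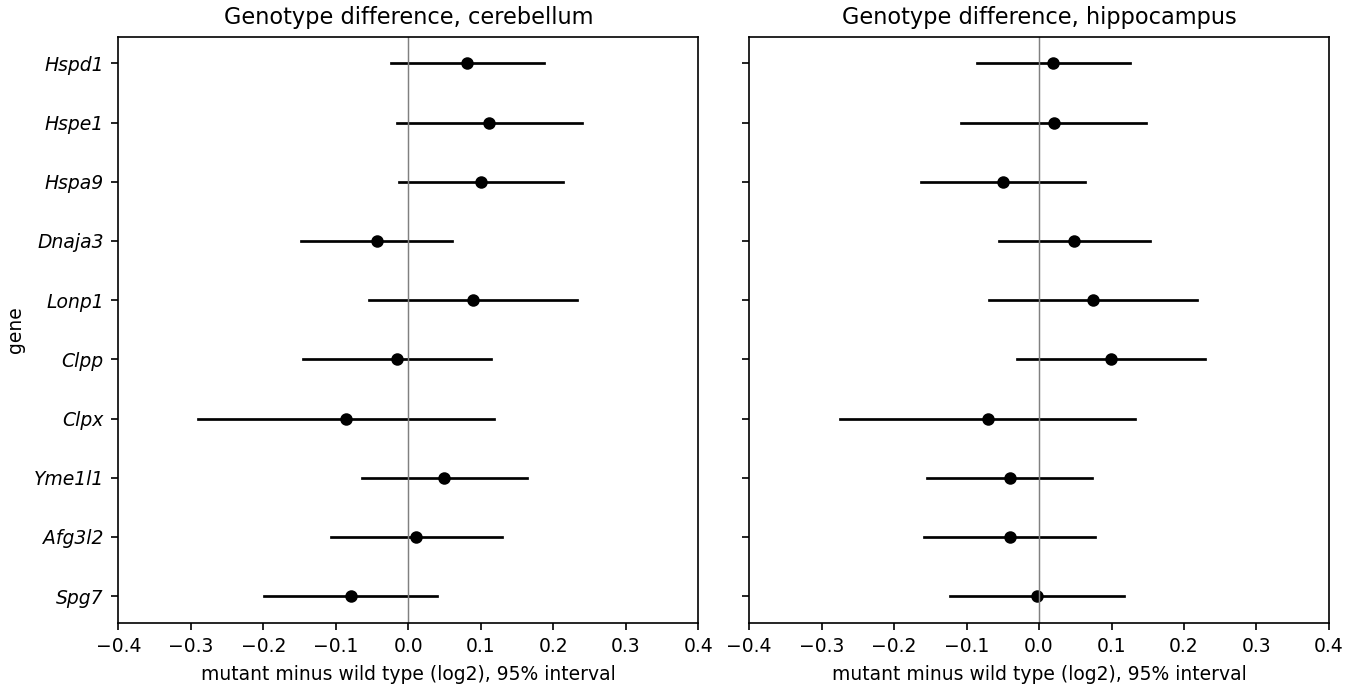
Genotype difference (mutant minus wild type, log2) of the 10 members in cerebellum and hippocampus, with 95% intervals from the fit over all 16 arrays. Points are estimates and every interval includes 0; Clpx has the widest interval in both regions.

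The spread among replicates of a group differed between members. The median SD of a member was 0.076 in mutant cerebellum and 0.091 in wild-type cerebellum. In hippocampus it was 0.067 in mutants and 0.053 in wild types. Clpx had the largest SD in mutant cerebellum, at 0.17, in wild-type cerebellum, at 0.14, and in mutant hippocampus, at 0.18. Dnaja3 had the smallest SD in both hippocampal groups, at 0.024 in each.

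Whether a member's genotype difference depended on the region was tested on the difference itself, hippocampus minus cerebellum. No member passed, as for 0% of all genes, and 0 members beside 5.35% of genes had an unadjusted p under 0.05. Hspa9 had the lowest value, -0.15 ± 0.076, from -0.050 in hippocampus and 0.10 in cerebellum, with an interval of -0.31 to 0.011 and adjusted p = 0.867. Clpp had the highest, 0.11 ± 0.087 (adjusted p = 0.885), followed by Dnaja3 at 0.092 ± 0.070. Of the 10 values 4 were above 0, beside 54.9% of all genes. For Clpx, at 0.015, the sign turned with quantile normalization, to -0.018.

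Averaging both regions gave 7 of 10 members above 0, beside 58.7% of all genes. Lonp1 was highest at 0.082 ± 0.046 with an interval of -0.020 to 0.18 and adjusted p = 0.628. Its difference was of like size in both regions, as was that of Clpx, the lowest, at -0.079 ± 0.060. For Clpx this likeness is that of a mean over 2 probe sets that disagreed. They were at 0.044 and -0.22 in cerebellum and at -0.090 and -0.052 in hippocampus. Hspe1 averaged 0.066 ± 0.043 and Hspd1 0.050 ± 0.042. No member passed, nor did any gene (0%), while 0 members and 8.51% of genes had an unadjusted p under 0.05. The widest bounds of the 10 intervals were 0.863- and 1.14-fold in base 2. This fit joined the cerebellum and hippocampus of a genotype that carry the same number, and nothing in the labels says that these come from one mouse. As deviations from group means over all genes, such arrays correlated between -0.17 and 0.13 in mutants and between -0.054 and 0.17 in wild types. In each genotype 1 of the 4 numbers was over 0.1. The cerebellum array correlated most with the hippocampus array of its own number for 2 of 4 numbers in mutants and 1 of 4 in wild types. Without joining, on 16 arrays, the same averages had SEs of 0.048 for Lonp1 and 0.068 for Clpx, adjusted p for Lonp1 was 0.667, and again 0 members and 0 genes passed. The averages of Dnaja3, 0.0025, and Yme1l1, 0.0047, were near 0, and array-median centring turned Dnaja3 to -0.0020 and quantile normalization turned Yme1l1 to -0.0021.

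The members rest on 1 to 5 probe sets each, and these did not always move together. Hspd1 and Lonp1 each rest on 1. The pair for Hspe1 correlated at r = 0.51 over the 16 arrays and the pair for Clpp at r = 0.57. For Clpx the pair correlated at r = 0.090 and for Spg7 at r = -0.022. Within Hspa9, with 5 probe sets, r ran from -0.56 to 0.65, within Dnaja3, with 3, from -0.53 to 0.52, and within Yme1l1, with 4, from -0.65 to 0.47. The 3 probe sets of Afg3l2 gave r between 0.12 and 0.32. These values describe arrays that share 2 regions, and carry no test.

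Probe sets for Hspa9 gave genotype differences above 0 in cerebellum in 5 of 5 cases, between 0.026 and 0.16, and in hippocampus in 1 of 5. For Yme1l1 in cerebellum, 1 probe set was at -0.15 while the other 3 lay between 0.081 and 0.13. Clpx split too, with its pair at 0.044 and -0.22 in cerebellum. In hippocampus the first of the pair had SDs of 0.034 in mutants and 0.022 in wild types. The second had SDs of 0.33 and 0.17. The first was at -0.090 and the second at -0.052 there, with limma adjusted p = 0.821 and 0.963 over all probe sets. Both Spg7 probe sets were below 0 in cerebellum, and in hippocampus they were at 0.091 and -0.10. Their limma adjusted p in hippocampus was 0.747 and 0.839 over all probe sets.

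Dnaja3's lack of overlap in hippocampus came with disagreement among its probe sets. The one with the highest difference was at 0.21, -0.028, 0.081 and 0.17 in mutants, against 0.019, -0.14, -0.019 and -0.28 in wild types. Replicate 2 was the lowest mutant and lay below wild-type replicates 1 and 3, so this probe set's groups overlapped. Its difference was 0.21 (limma adjusted p = 0.621 over all probe sets), while the other two were at -0.071 and 0.0019. This probe set was the 1 of 25 member probe sets with an unadjusted p under 0.05 in hippocampus, beside 7.19% of all probe sets. In cerebellum 0 of 25 had one, beside 5.77%, and for the difference between regions 3 of 25, beside 5.18%. None of the 25 passed after adjustment in any comparison.

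**Figure D3:**
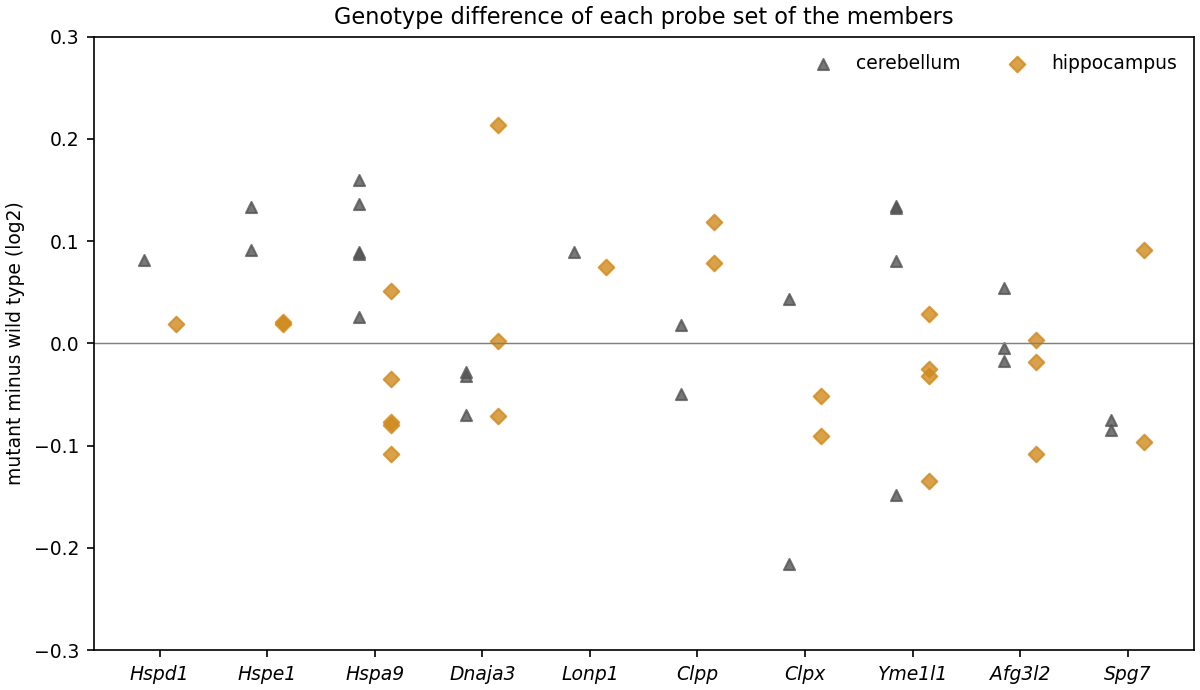
Genotype difference (mutant minus wild type, log2) of each of the 25 member probe sets, grouped by gene, with grey triangles for cerebellum and orange diamonds for hippocampus. The 5 Hspa9 probe sets lie above 0 in cerebellum, and 1 Dnaja3 probe set lies at 0.21 in hippocampus, away from the other 2.

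Replicates 1 and 2 of each group were 24 months or older and replicates 3 and 4 were 23 months or younger, which allowed older and younger mice to be compared across genotypes. In cerebellum 3 of 10 members were above 0, beside 52.6% of all genes. Among these Hspe1, at 0.000561, turned to -0.0026 with array-median centring and to -0.000988 with quantile normalization. Hspa9 had the highest difference, 0.089 ± 0.052, and Hspd1 the lowest, -0.085 ± 0.047. No member and 0% of genes passed, 0 members beside 4.21% of genes had an unadjusted p under 0.05, and 0 members beside 2.26% of genes had age classes that did not overlap. Among probe sets, 2 of 25 had an unadjusted p under 0.05, beside 4.12% of all. They belonged to Hspa9, at 0.26, and Afg3l2, at -0.21.

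In hippocampus 1 of 10 members, Lonp1, was above 0, beside 45.3% of all genes. Hspe1 was lowest at -0.10 ± 0.058 (adjusted p = 0.779), with -0.044 ± 0.048 in older and 0.060 ± 0.067 in younger mice (SD, n = 4 each). Yme1l1 was the 1 member whose age classes did not overlap, which held for 3.5% of genes in either direction and 1.72% with older mice lower. Older mice were at -0.11 and -0.056 (mutants) and -0.036 and 0.012 (wild types), against 0.068 and 0.019 (mutants) and 0.027 and 0.081 (wild types) in younger mice. The highest older mouse lay just under the lowest younger one, and the difference was -0.10 ± 0.052 (adjusted p = 0.759). No member and 0% of genes passed, and 0 members beside 6.55% of genes had an unadjusted p under 0.05. The arrays whose granule neuron lists stood apart, both replicate 1, are among the older ones.

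Across the 16 arrays the 10 members correlated in both directions. Of their 45 pairs 21 had r above 0, with a median of -0.0023. Hspe1 and Yme1l1 had the highest r, 0.66, and Dnaja3 and Afg3l2 the lowest, -0.56. Hspd1 and Hspe1, the partners with a shared promoter, had r = 0.50 and rho = 0.66, with r = 0.50 in cerebellum and 0.68 in hippocampus.

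By likeness to Hspd1 over these arrays Hspe1 ranked 481 of 18167 genes. The 5 genes most like Hspd1 were Tm7sf3 (r = 0.92), Tomm22 (r = 0.82), Gigyf2 (r = 0.80), Mon1b (r = 0.79) and Arl11 (r = 0.79). Mutant cerebellum replicate 3 and wild-type cerebellum replicate 2 lay farthest from the median of Hspd1. Without them r was 0.52 for Arl11 and between 0.74 and 0.86 for the others. Tomm22 encodes a receptor of the outer-membrane import pore. All arrays of a region share its centring, and these values carry no test.

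**Figure D4:**
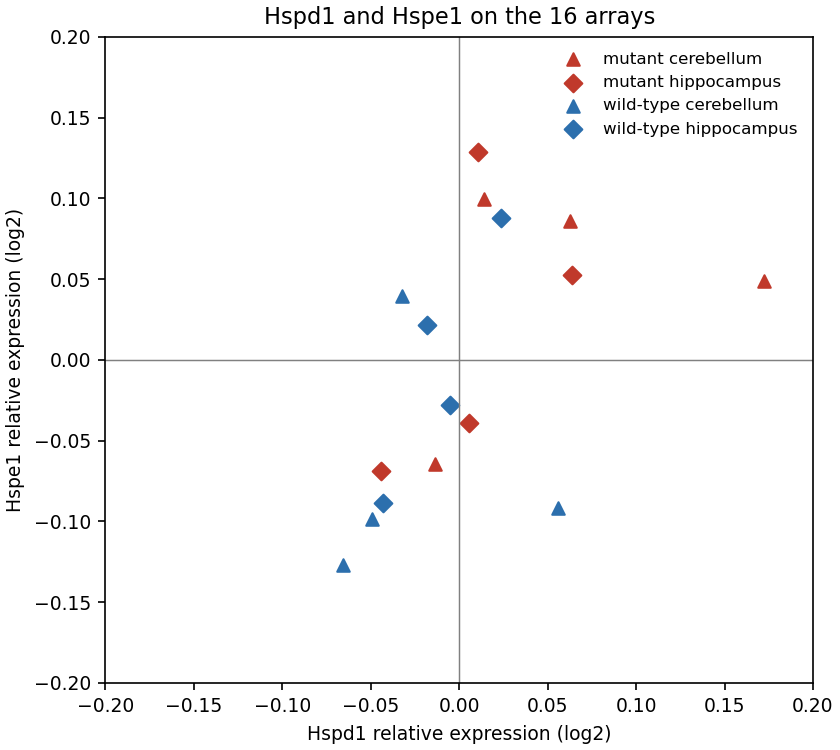
Relative expression (log2) of Hspe1 against Hspd1 on the 16 arrays, red for mutants and blue for wild types, triangles for cerebellum and diamonds for hippocampus. Most arrays lie in the lower left or the upper right of the plot, and mutant cerebellum replicate 3 has the highest Hspd1 value, 0.17.

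Other genes of the pathway were described by their counts, on lists not tested as sets; no gene of any of them passed in either region. Beside all these counts, 53.6% of all genes were above 0 in cerebellum, with a median of 0.0074. In hippocampus it was 58.9% of all genes, with a median of 0.020. Of 9 further mitochondrial chaperones measured, 8 were above 0 in cerebellum, with a median of 0.068, and 7 in hippocampus, with a median of 0.047. In cerebellum Grpel1, the nucleotide exchange factor of Hspa9, was at 0.10 ± 0.062, Grpel2, its relative, at 0.066 ± 0.057, and Dnajc15, a J-domain protein of the import motor, at 0.14 ± 0.090. In hippocampus Trap1, the mitochondrial Hsp90, was at 0.11 ± 0.052 (adjusted p = 0.613) and Bcs1l, an assembly factor of complex III, at 0.17 ± 0.089, and Tcaim was at 0.16 ± 0.091.

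Of 14 further mitochondrial proteases measured, 11 were above 0 in cerebellum, with a median of 0.063, and 8 in hippocampus, with a median of 0.0067. Pmpcb, a subunit of the peptidase that removes import signals, was at 0.13 ± 0.065 in cerebellum, Immp1l, an inner-membrane peptidase, at 0.17 ± 0.089 and Parl, a rhomboid protease, at 0.16 ± 0.083. In hippocampus Oma1, which cleaves Opa1 under stress, was at 0.15 ± 0.084, Htra2, a protease of the intermembrane space, at 0.064 ± 0.059, and Lactb at -0.12 ± 0.061. The smallest adjusted p of both lists was 0.884 in cerebellum and 0.613 in hippocampus.

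Of 10 regulators of mitochondrial stress responses measured, 7 were above 0 in cerebellum and 6 in hippocampus. Ubl5, a ubiquitin-like protein of the stress response in worm mitochondria, was at 0.11 ± 0.053 in cerebellum and 0.069 ± 0.053 in hippocampus. Atf4, the transcription factor of the integrated stress response, was at 0.083 ± 0.067 in cerebellum, and Dele1, which relays mitochondrial stress to the cytosol, at 0.057 ± 0.047. In hippocampus Jun, an AP-1 transcription factor, was at 0.085 ± 0.067. Cebpb, a C/EBP transcription factor, was there at -0.47 ± 0.20 (adjusted p = 0.584), with means of -0.058 ± 0.080 in mutants and 0.41 ± 0.58 in wild types (SD over 4 samples). Of the 57 genes on these 5 lists 1, Cebpb, had an unadjusted p under 0.05 in hippocampus, beside 8.03% of all genes, and 0 had one in cerebellum, beside 5.39%.

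Of 11 targets of the integrated stress response measured, 6 were above 0 in cerebellum, with a median of 0.019. In hippocampus 9 were, with a median of 0.078. The list's mean there was 0.064, -0.0065, 0.059 and -0.038 in mutants and -0.14, -0.013, -0.051 and -0.013 in wild types. The lowest was wild-type replicate 1, an array whose marker lists stood apart. The part of that array in the counts was not tested. Mthfd2, an enzyme of mitochondrial folate metabolism, was at 0.16 ± 0.082 in cerebellum and 0.11 ± 0.082 in hippocampus. Sesn2, a stress-induced inhibitor of mTORC1, was at -0.11 ± 0.075 in cerebellum, and Shmt2, the mitochondrial serine hydroxymethyltransferase, at -0.057 ± 0.056. Phgdh, the first enzyme of serine synthesis, was at 0.18 ± 0.088 in hippocampus (adjusted p = 0.613), and Chac1, which degrades glutathione, at 0.14 ± 0.13. Chaperones of the cytosol and endoplasmic reticulum, 13 of them measured, were split, with 7 above 0 in each region and medians of 0.0090 in cerebellum and 0.0042 in hippocampus. Hsph1, a cytosolic partner of Hsp70, was at -0.18 ± 0.10 in hippocampus, and Canx, the endoplasmic reticulum lectin chaperone, at -0.13 ± 0.068 in cerebellum. Pdia4, a disulfide isomerase, was at -0.092 ± 0.057 in cerebellum. Dnaja1, a J-domain partner of Hsp70, was at 0.091 ± 0.058 in cerebellum and -0.073 ± 0.058 in hippocampus. Hspb1, a small heat shock protein, was at -0.45 ± 0.39 in hippocampus. Its SD there was 0.26 in mutants and 1.25 in wild types.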

How the data were processed

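Per the labels' protocols, RNA was isolated with Trizol and 5 ug of it went into biotin-labelled cRNA. The submitters' processing notes name GCOS 4.0. The authors deposited log2 values (base inferred) relative to the median of a region's 8 arrays; how probes were summarised and arrays normalized is not given in the sources used here. Base 10 was set aside: the widest probe set covers 10.26 units, while a 16-bit scan holds 4.82 decades. Genotype, region and replicate came from the titles; a free-text entry that calls the hippocampus samples cerebellum was not followed.

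Control probe sets (64) and those with an empty value (133) were dropped from 45101. Probe sets with 1 symbol were averaged into 18168 genes, with no filter on low values, since levels are unknown. The fits used limma 3.58.1 under R 4.3.3: group means over 16 arrays (12 residual degrees of freedom), 8 region means for the average (6), and age class terms (10). Two-sided p-values were adjusted by Benjamini-Hochberg over all genes, with a threshold of 0.05, and the fits were checked on simulated data. Genes eligible to be named were all members, up to 3 of smallest p per list and region, the 5 most like Hspd1, and Twnk. Members and lists were chosen with earlier results of these data known. As deviations from group means, same-numbered samples of both genotypes correlated between -0.19 and 0.23, so numbers were not treated as pairs of genotypes. The average joins regions by number. Alternatives changed probe sets, normalization, centring, arrays, weights, age, a replicate block and joining of regions. The number of arrays limits the precision.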

Additional observations from a re-analysis of the deposited data

Results flagged for a closer look

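Spg7 in wild-type hippocampus replicate 3 was at 0.147, while the other 3 wild types lay between -0.044 and -0.033. The gap to the nearest of them was 0.939 of the group's whole range, above Dixon's 95% critical value for 4 samples. It was the 1 case among 40 groups of 4 examined, and chance alone flags about 5% of groups.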

How the results depend on the processing

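Of 954 member values under the alternatives, 0 passed the test and 73 changed sign, and the smallest limma adjusted p was 0.407. The 954 include settings that return the same differences by design. These are the region's 8 arrays alone, the replicate block and the average without joining, where no sign could change. Hspd1, Clpx and Yme1l1 have no probe set ending in _x_at, _s_at or _a_at, so leaving those out returns their same differences too. In cerebellum, leaving out arrays with marker lists apart repeats the differences found without mutant replicate 4. With limma array weights, sign-changed differences were 0.0054 for Clpp in cerebellum, 0.0080 for Spg7 in hippocampus, -0.034 for Clpx in the difference between regions, 0.027 for Clpp in age in cerebellum, 0.013 for Yme1l1 in age in cerebellum and 0.0044 for Clpx in age in hippocampus. With the arrays with poly-A spike-ins over 0.5 left out, sign-changed differences were -0.013 for Yme1l1 in cerebellum. With probe sets ending in _x_at, _s_at or _a_at left out, sign-changed differences were -0.011 for Afg3l2 in cerebellum, -0.012 for Spg7 in the difference between regions, 0.030 for Clpp in age in cerebellum, 0.012 for Spg7 in age in cerebellum, 0.0065 for Hspa9 in age in hippocampus and 0.029 for Dnaja3 in age in hippocampus. With age in months as a covariate, sign-changed differences were -0.0017 for Afg3l2 in cerebellum, -0.019 for Hspe1 in hippocampus, 0.033 for Lonp1 in the difference between regions and -0.010 for Yme1l1 in the average. With the arrays with marker lists more than 1 from 0 left out, sign-changed differences were -0.021 for Hspe1 in hippocampus and 0.000529 for Afg3l2 in hippocampus. With quantile normalization within region, sign-changed differences were -0.018 for Clpx in the difference between regions, -0.0021 for Yme1l1 in the average, -0.000988 for Hspe1 in age in cerebellum and 0.0019 for Yme1l1 in age in cerebellum. With array-median centring, sign-changed differences were -0.0020 for Dnaja3 in the average and -0.0026 for Hspe1 in age in cerebellum. With 1 array left out at a time, sign-changing members for cerebellum spanned -0.059 to 0.025 for Clpp and -0.022 to 0.041 for Afg3l2. With 1 array left out at a time, sign-changing members for hippocampus spanned -0.017 to 0.050 for Hspe1 and -0.021 to 0.044 for Spg7. With 1 array left out at a time, sign-changing members for the difference between regions spanned -0.070 to 0.018 for Lonp1 and -0.057 to 0.093 for Clpx. With both arrays of a genotype and number left out, those for the average spanned -0.019 to 0.019 for Dnaja3, -0.016 to 0.035 for Yme1l1 and -0.041 to 0.0094 for Afg3l2. With 1 array left out at a time, sign-changing members for age in cerebellum spanned -0.043 to 0.043 for Hspe1, -0.0052 to 0.072 for Dnaja3, -0.049 to 0.033 for Clpp, -0.034 to 0.027 for Yme1l1 and -0.046 to 0.033 for Spg7. With 1 array left out at a time, sign-changing members for age in hippocampus spanned -0.046 to 0.0042 for Hspa9, -0.11 to 0.023 for Clpx, -0.031 to 0.023 for Afg3l2 and -0.069 to 0.0083 for Spg7.

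Over all genes, 0 passed in each comparison as reported, and no alternative brought in a member. In hippocampus 2 genes passed between genotypes with quantile normalization, 2 without probe sets ending in _x_at, _s_at or _a_at, 1 without the arrays with marker lists apart, and 0 to 7 with 1 array left out, 7 without wild-type replicate 2. For the difference between regions it was 0 to 1. For the average, 1 probe set passed when each was tested alone. For age in cerebellum it was 7 with quantile normalization and 4 with the region's 8 arrays alone. For age in hippocampus it was 10 with quantile normalization, 3 with array-median centring, 4 without those probe sets, 9 with array weights and 0 to 7 with 1 array left out. The members' median in cerebellum was -0.011 without those probe sets and -0.0023 without the poly-A arrays, and 0.013 to 0.046 with 1 array left out. In hippocampus it was -0.035 without those probe sets, -0.020 with age as a covariate, and -0.014 to 0.037 with 1 array left out. In both regions the median without those probe sets leaves out Lonp1. The causes were not tested.

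With the replicate block, 0 genes passed in any of the 4 genotype comparisons and no member's call changed; the smallest adjusted p over all genes was 0.897 in cerebellum and 0.330 in hippocampus. Of the 4 numbers, 0 in cerebellum and 1 in hippocampus had genotypes correlating over 0.1 as deviations from group means. Leaving out the arrays with marker lists or poly-A spike-ins apart, and age or weights for the medians, was chosen after seeing the data, as was averaging both regions on 16 arrays without joining them by number, where 0 genes passed. The 4 arrays per group and the missing expression levels limit what small differences can be detected.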
